A study of Mus musculus with 4 samples.

Results

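Metallothioneins are small cysteine-rich proteins that bind zinc and copper, and this account follows 7 genes of zinc handling in the unmanipulated mouse heart. They are the metallothionein genes Mt1, Mt2 and Mt3, the metal-responsive transcription factor gene Mtf1, the zinc exporter gene Slc30a1 and the zinc importer genes Slc39a14 and Slc39a10. All 7 were found by symbol among the 23420 genes of the deposited count files. Mt1 and Mt2 were chosen by their CPM in the 4 libraries, for how far these lay apart, so their spread is described here and not tested. The other 5 were chosen for what they do.

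The series holds 4 libraries of polyadenylated RNA that form 1 group: C57BL/6J wild-type mice, 12 weeks old, all labelled male, with no treatment and no control group. The labels call the tissue the whole heart, while their protocols describe frozen ventricular apexes. Library numbers are those of the titles. No label says whether different animals gave the libraries, so p-values here speak only of the differences among these samples, some of which may be technical.

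Zinc in the cell is held by a loop in which metallothioneins buffer the metal, SLC30 proteins move it out of the cytosol and SLC39 proteins move it in. When free zinc rises, the factor MTF-1 binds metal response elements in the promoters of the metallothionein genes and of Slc30a1 and raises their transcription, and in mice it lowers that of Slc39a10. In mammals Mt1 and Mt2 are also classic targets of glucocorticoids and of oxidative stress, and Slc39a14, which carries iron and manganese as well as zinc, responds to interleukin-6 in the liver. Mt3 is mainly a gene of the brain.

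The promoters of the metallothionein genes and of Slc30a1 carry the letters that MTF-1 is known to read. The window searched was 250 bases before to 50 after each RefSeq start, and the motifs were the metal response element cores TGCACNC and TGCGCNC on both strands. The Mt1 window (chr8:94178839-94179138, plus strand) held 3 matches, the Mt2 window (chr8:94172368-94172667, plus strand) 4 and the Slc30a1 window (chr1:191906531-191906830, plus strand) 2. They are shown because these are the members whose response to metal runs through this element. Levels of Mt1 and Mt2, which were chosen for their spread, lay far apart between libraries, while those of Slc30a1 stayed within 1.11-fold. What part this element had in these levels was not tested. Sequences are from RefSeq on build GRCm38.p6, 5′ to 3′, and capitals mark the matches.
Mt1: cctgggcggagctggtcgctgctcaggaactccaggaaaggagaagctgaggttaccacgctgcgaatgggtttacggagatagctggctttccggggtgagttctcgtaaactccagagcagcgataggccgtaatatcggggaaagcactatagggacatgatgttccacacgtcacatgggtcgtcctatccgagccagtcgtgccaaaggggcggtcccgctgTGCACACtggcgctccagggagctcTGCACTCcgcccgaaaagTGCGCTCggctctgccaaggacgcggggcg
Mt2: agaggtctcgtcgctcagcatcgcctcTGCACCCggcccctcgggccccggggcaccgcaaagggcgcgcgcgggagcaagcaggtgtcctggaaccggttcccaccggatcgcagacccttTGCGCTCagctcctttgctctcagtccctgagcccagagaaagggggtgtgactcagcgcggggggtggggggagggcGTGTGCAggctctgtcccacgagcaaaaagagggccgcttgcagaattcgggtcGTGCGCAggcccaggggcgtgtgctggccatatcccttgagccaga
Slc30a1: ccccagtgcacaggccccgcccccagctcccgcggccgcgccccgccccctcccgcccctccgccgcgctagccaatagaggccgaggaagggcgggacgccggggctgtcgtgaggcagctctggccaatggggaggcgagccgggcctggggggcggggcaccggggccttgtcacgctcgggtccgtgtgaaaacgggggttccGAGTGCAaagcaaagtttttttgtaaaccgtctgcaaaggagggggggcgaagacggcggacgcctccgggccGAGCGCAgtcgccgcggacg

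Of 32851 promoter windows of the same length, 25.7% held at least 1 such core and 1.97% held 3 or more. The Mt3 window had 1 match, and the windows of Mtf1 and Slc39a10 had 0. Slc39a14 was not among the windows. The antioxidant response core TGACNNNGC, in 12.4% of windows, had 1 match in Mt2, 1 in Slc30a1 and 0 in Mt1. The arm of the glucocorticoid receptor element, AGAACA on either strand, in 19.0% of windows, had 0 matches in Mt1, Mt2 and Slc30a1 and 1 in Mtf1. No match of these motifs overlapped one of another. A match describes letters and not a bound site, and these windows do not hold more distant elements. Bases just before or after a window were not searched either. The Mt1 window ends at base 94179138, so its count of 0 for the antioxidant core leaves the bases after it untested.

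The libraries held 10523709 to 15359296 counts assigned to genes, and levels are given as CPM, counts per 1000000 gene counts of a library. Cardiomyocyte markers (7 genes, Myh6 and Actc1 among them) summed to 94744 to 106012 CPM, endothelial ones (8) to 1207 to 1239, fibroblast ones (7) to 829 to 954, smooth muscle and pericyte ones (7) to 718 to 829, macrophage ones (6) to 112 to 128, adipocyte ones (5) to 1.11 to 3.80, those of lymphocytes and neutrophils (6 in the files) to 1.11 to 2.51 and those of liver (4) to 0.431 to 0.555. Of these marker genes the liver gene Alb was at 0 counts in all 4 libraries. Libraries 2 and 3 went against the label of sex: Xist, the RNA of the inactive X chromosome, had 1897 counts in library 2 and 1806 in library 3, against 5 in library 1 and 19 in library 4. The Y-linked gene Ddx3y had 0 and 1 counts in libraries 2 and 3, against 341 and 437 in libraries 1 and 4. The gaps of Mt1 and Mt2 are therefore also given below for libraries 1 and 4 alone. So are the counts of edgeR calls over all genes, zinc transporters and glucocorticoid-responsive genes. Other results use all 4 libraries or leave 1 out.

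Mt1 was the most abundant of the 7 genes in each library, by CPM and by CPM per kilobase of exon, and Mt2 the one whose level differed most between libraries. Mt1 lies on chromosome 8 (94179082 to 94180327, GRCm38). Its level was 253, 104, 182 and 215 CPM from library 1 to library 4, a mean of 189 ± 63.3 CPM (SD, n = 4). Mt2, upstream of it (94172664 to 94173568), reached 43.7, 8.76, 17.7 and 41.3 CPM, a mean of 27.9 ± 17.3 CPM. Both genes were highest in library 1 and lowest in library 2, and in both genes libraries 2 and 3 lay below libraries 1 and 4. In bulk tissue a lower level can come from fewer cells that express a gene or from less RNA per cell, and these cannot be told apart.

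The gap between the highest and the lowest library was 2.42-fold for Mt1 (95% limits 2.28 to 2.58, counting error only) and 4.99-fold for Mt2 (4.10 to 6.11). Between libraries 1 and 4 alone it was 1.18-fold for Mt1 and 1.06-fold for Mt2. Without library 2 the Mt1 gap was 1.39-fold and the Mt2 gap 2.47-fold. Exact Poisson limits of 95% for Mt2 ran from 7.28 to 10.5 CPM in library 2 and from 15.2 to 20.4 CPM in library 3. These limits describe the precision of values that chose the gene and are no test of a difference.

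**Figure D1:**
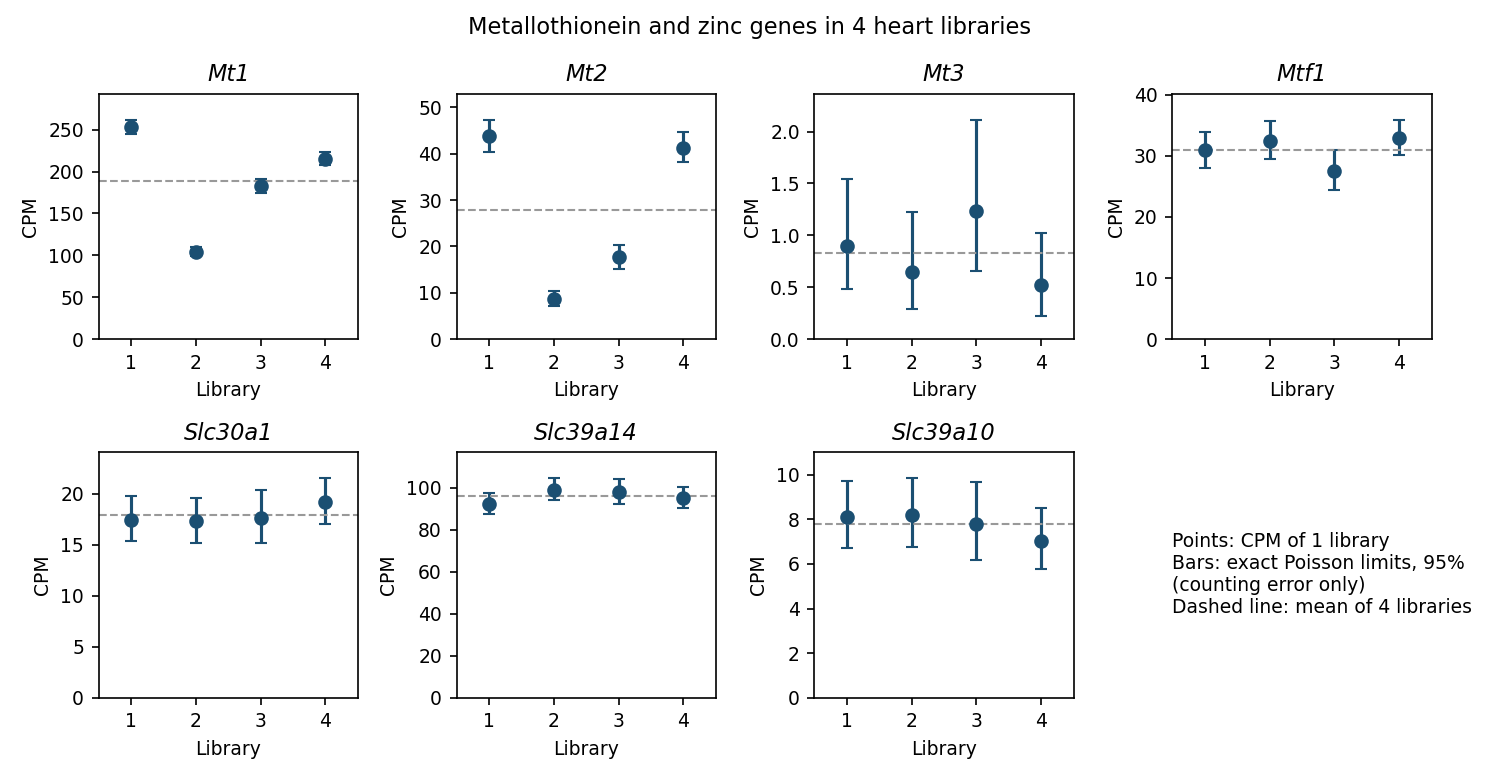
CPM of each of the 7 genes (y axis, from 0) in libraries 1 to 4 (x axis). Points are single libraries, bars are exact Poisson limits of 95% that cover counting error only, and the dashed line is the mean of 4 libraries. Mt1 and Mt2 are lowest in library 2 (104 and 8.76 CPM), while Mtf1 and the 3 transporters stay near their means.

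Mt3 (chromosome 8, 94152607 to 94154146), the metallothionein of the brain, was near the limit of detection. From library 1 to library 4 its counts were 13, 9, 13 and 8 and its levels 0.902, 0.647, 1.24 and 0.521 CPM, and its mean of 0.826 ± 0.315 CPM (SD, n = 4) is under the 1 CPM required for the test of spread. Its 2.37-fold gap has limits of 0.911 to 6.60, so a difference between libraries was not detectable at this depth. The fourth gene of the cluster, Mt4, which is a gene of stratified epithelia and not one of the 7, had 0 counts in all 4 libraries. A count of 0 allows up to 3 counts, which is 0.195 to 0.285 CPM depending on the library.

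Mt1 and Mt2 did not differ between libraries by the same factor. Libraries 1 to 4 held 5.79, 11.9, 10.3 and 5.22 counts of Mt1 for each count of Mt2. The exact binomial limits of 95% were 5.32 to 6.31 in library 1, 9.90 to 14.5 in library 2, 8.87 to 12.1 in library 3 and 4.79 to 5.69 in library 4. The ratio was thus higher in libraries 2 and 3, and their limits overlapped each other but not those of libraries 1 and 4. These limits cover counting error only, for values that chose both genes, and are no test of a difference. The sex-linked genes set the same libraries apart, so this split cannot be told apart from sex. Mt2 made up 7.74% of the Mt1 and Mt2 counts together in library 2 and 8.84% in library 3, against 14.7% in library 1 and 16.1% in library 4. The annotated antisense gene Gm45774 covers 432 of the 588 exon bases of Mt2 (73.5%), and since the libraries do not keep the strand, reads of Mt2 and of this gene cannot be told apart. Mt1 shares 0 exon bases with other genes. What share of the Mt2 counts came from Gm45774 was not tested.

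**Figure D2:**
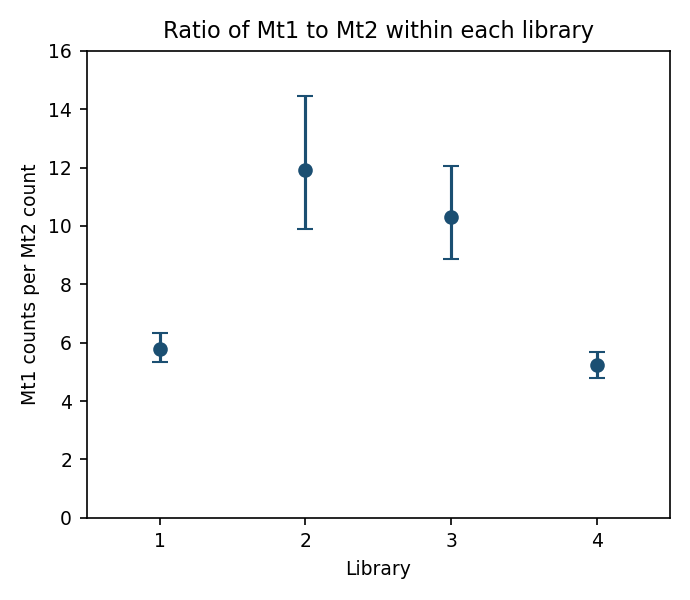
Counts of Mt1 per count of Mt2 (y axis, from 0) in libraries 1 to 4 (x axis), with exact binomial limits of 95% that cover counting error only. Libraries 2 and 3 sit at 11.9 and 10.3, libraries 1 and 4 at 5.79 and 5.22.

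The factor gene and the transporters had gaps of 1.08 to 1.19-fold between the highest and the lowest library. Mtf1 (chromosome 4, 124802104 to 124849800) stood at 30.9, 32.5, 27.6 and 32.9 CPM, lowest in library 3 (mean 30.9 ± 2.42, SD, n = 4). Its 1.19-fold gap has limits of 1.03 to 1.38, which leave out 1, for a pair of libraries picked as the extremes of 4. Slc30a1 (chromosome 1, 191906767 to 191913247), the exporter of the plasma membrane, had 17.5, 17.3, 17.7 and 19.2 CPM (mean 17.9 ± 0.870). Its limits overlapped in all 4 libraries, and its 1.11-fold gap has limits of 0.933 to 1.32.

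The gaps of both importers had limits that hold 1. Slc39a14 (chromosome 14, 70303469 to 70351425) had 92.1, 99.0, 98.1 and 95.1 CPM (mean 96.1 ± 3.13), a gap of 1.08-fold with limits of 0.996 to 1.16. Slc39a10 (chromosome 1, 46807544 to 46892852) had 8.12, 8.19, 7.79 and 7.03 CPM (mean 7.78 ± 0.530) and a gap of 1.16-fold with limits of 0.887 to 1.53. For both genes library 2 had the highest CPM, with counting limits that overlapped those of each other library. For each count of Slc30a1, which MTF-1 is known to control as well, there were 14.5, 6.03, 10.3 and 11.2 counts of Mt1 and 2.50, 0.506, 1 and 2.15 counts of Mt2 in libraries 1 to 4. The genes 1110065P20Rik and 1700034H15Rik share 8.09% of the exon bases of Mtf1 and 8.92% of those of Slc30a1.

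The spread of each gene was set against genes of similar abundance with edgeR's quasi-likelihood fit, in which a variance ratio of 1 means a spread on the trend. Of 12358 tested genes, 52 (0.421%) were called more variable than the trend at a Benjamini-Hochberg adjusted p under 0.05. Mtf1 had a variance ratio of 0.752, Slc30a1 of 0.208, Slc39a14 of 0.387 and Slc39a10 of 0.357, against a median of 0.852 over all tested genes. The edgeR adjusted p was 0.995 for each of these 4, and their coefficients of variation were 7.82, 4.86, 3.26 and 6.81%, against a median of 9.59%. Mt1 and Mt2, which were chosen for their spread, had variance ratios of 36.8 and 70.2 and coefficients of variation of 33.5 and 62.2%. Those of Mt1 and Mt2 describe the choice and carry no test.

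**Figure D3:**
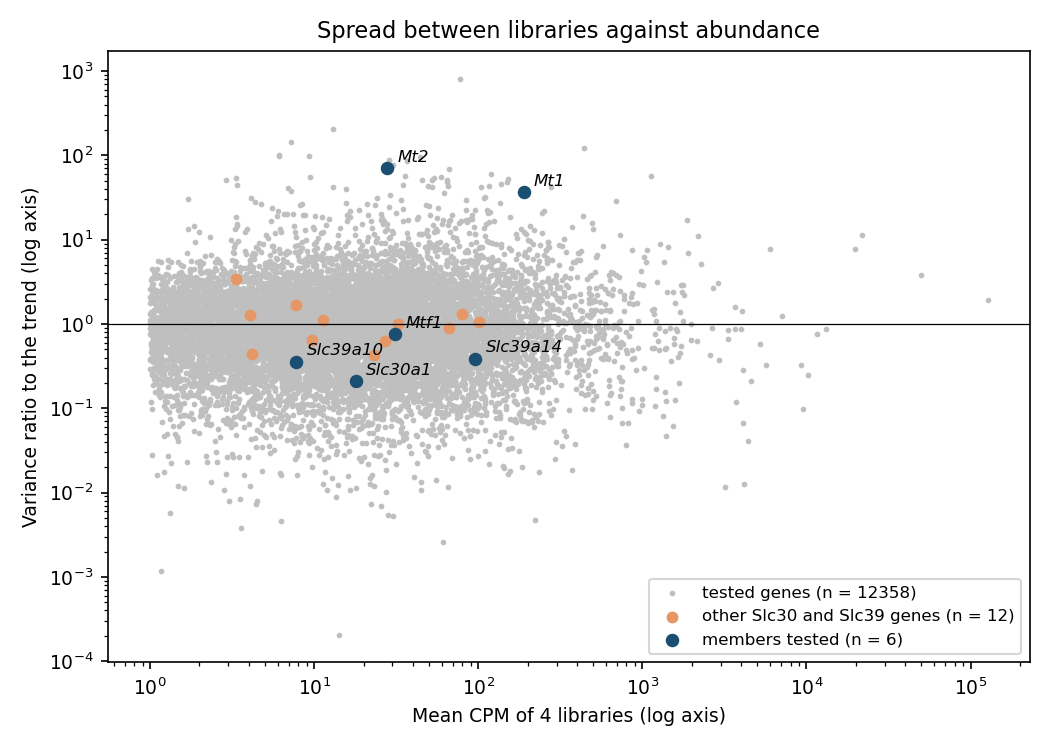
Variance ratio to the abundance trend (y axis, log scale) against mean CPM of 4 libraries (x axis, log scale) for 12358 tested genes in grey, 12 other tested Slc30 and Slc39 genes in orange and the 6 tested members in blue. Mt1 and Mt2 stand at 36.8 and 70.2, while the 4 other members lie below the line at 1.

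Levels of different genes are compared per kilobase of annotated exon. Mt1 stood at 152 ± 50.8 CPM per kilobase (SD, n = 4), Mt2 at 47.4 ± 29.5, Slc39a14 at 9.11 ± 0.297, Mtf1 at 3.47 ± 0.272, Slc30a1 at 3.42 ± 0.166, Slc39a10 at 1.28 ± 0.0870 and Mt3 at 0.775 ± 0.296. In 5 of the 6 neighbouring pairs of that order the first gene was higher in 4 of 4 libraries. Mtf1 and Slc30a1 did not differ beyond their spread on this scale: the log2 ratio was 0.02 ± 0.11, Mtf1 was higher in 3 of 4 libraries, and the two-sided exact sign-flip permutation p was 0.625. The other 5 pairs each had p = 0.13 in that exact test, the smallest that 4 libraries allow, and an adjusted p of 0.15 over 6 pairs, so no pair could pass 0.05.

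Mt1 exceeded Mt2 per kilobase by 3.68-fold (2.46 to 5.60-fold between libraries) and Mt2 exceeded Slc39a14 by 4.30-fold (1.59 to 8.52-fold). The annotated exons of Mt1 together cover all 1246 bases of the gene, introns of its principal transcript included, so this scale understates Mt1. With the principal transcript of 549 bases, a length chosen after seeing the data, Mt1 stood at 344 ± 115 CPM per kilobase and exceeded Mt2, at 54.5 ± 33.9 CPM per kilobase, by 7.25-fold. Exon lengths also exceed the principal transcript for Slc39a14 (10550 against 4926 bases) and Mt3 (1066 against 536 bases). By principal transcripts Mt2 exceeded Slc39a14 by 2.31-fold and was higher in 3 of 4 libraries (0.857 to 4.58-fold). On that scale Slc39a10 was higher than Mt3 in 2 of 4. Mtf1 was higher than Slc30a1 in 4 of 4 on that scale, by a log2 ratio of 0.24 ± 0.11 (SD, n = 4), so how far apart this pair lay depended on the length used.

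**Figure D4:**
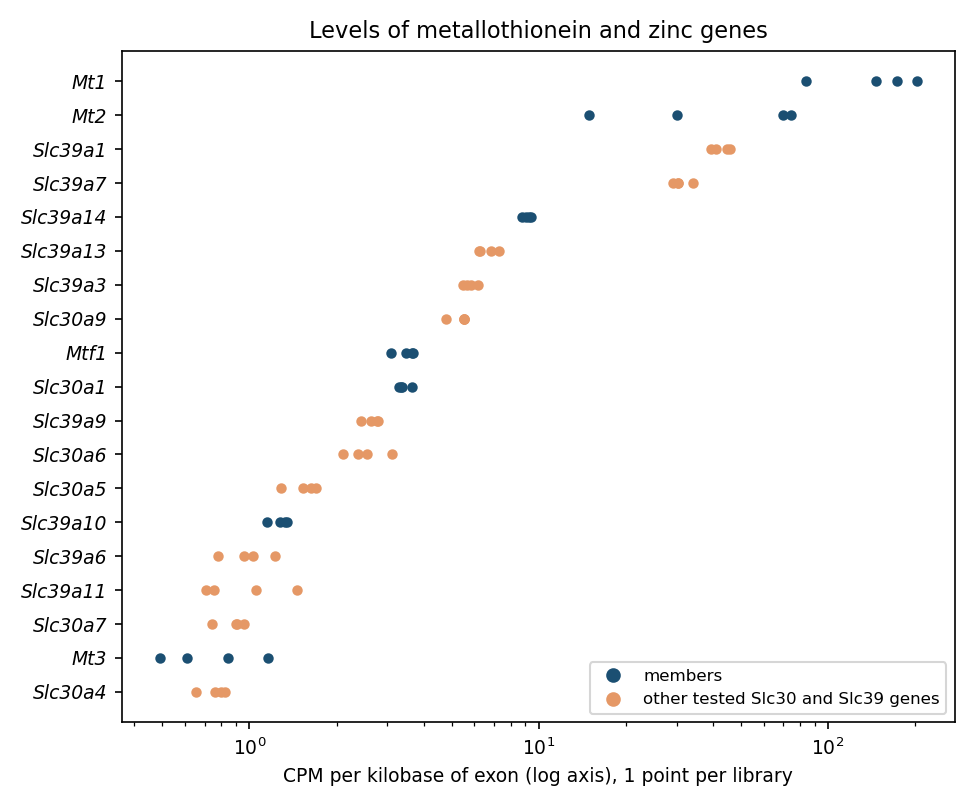
CPM per kilobase of exon (x axis, log scale) of the members in blue, and in orange of the other tested Slc30 and Slc39 genes, 1 point per library, ordered by mean. Mt1 at 152 and Mt2 at 47.4 lead the order and have the points farthest apart among genes above 1 CPM per kilobase.

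The zinc transporter families ranged from genes of about 100 CPM to genes of single counts, and the count of calls among them was near the background. All 24 Slc30 and Slc39 genes searched were in the files, 15 passed 1 CPM and were tested, and 9 did not. Of those 15, 0 were called by edgeR at an adjusted p under 0.05, against 0.421% of all tested genes, a share at which a list of this size would usually hold no call. Of the same 15, 0 had an unadjusted p under 0.05, against 5.95% of all tested genes, and 0 were dispersion outliers of DESeq2, against 1.04%. The lowest edgeR adjusted p among them was 0.910, and edgeR also called 0 without library 2, without library 3 and in libraries 1 and 4 alone. Their median variance ratio was 0.894 and their median coefficient of variation 7.13%, with a range of 3.26 to 34.6%, beside 0.852 and 9.59% over all tested genes.

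Among the exporters, Slc30a9, a zinc transporter of mitochondria, had the most counts at 68.3, 68.3, 59.0 and 68.3 CPM in libraries 1 to 4, followed by Slc30a1. The lowest exporter with any count was Slc30a10, with 1 count, in library 4. Among the importers, Slc39a1, which sits at the plasma membrane, had 97.3, 109, 93.4 and 106 CPM, followed by Slc39a14. Per kilobase of exon Slc39a1 averaged 42.9 CPM and Slc39a14 9.11 CPM. By its principal transcript Slc39a14 stood at 19.5 CPM per kilobase, a length not examined for Slc39a1. The lowest importer was Slc39a12, with 3 counts in library 1 and 0 in the others. Summed per library, the 10 exporters had 111 to 123 CPM and the 14 importers 369 to 399 CPM, with the highest importer sum in library 2.

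Lists of other metal-handling genes were too short for a count of 0 to differ from the background of 0.421% called, 5.95% with an unadjusted p under 0.05 and 1.04% outliers of DESeq2. Of 5 further genes reported as MTF-1 targets, 0 were called by edgeR, 1 had an unadjusted p under 0.05 and 0 were outliers of DESeq2, with a median variance ratio of 0.767. The most abundant were the selenoprotein gene Sepw1, with 136 ± 2.97 CPM, and Ndrg1, with 61.6 ± 3.63 CPM (SD, n = 4). Pgf, a growth factor of vessels, was the one under 0.05 and was named after its values were seen; it had 10.1, 6.03, 5.32 and 11.0 CPM and an edgeR adjusted p of 0.488. Of 10 tested copper genes, 0 were called by edgeR, 0 had an unadjusted p under 0.05 and 0 were outliers of DESeq2, with a median variance ratio of 1.18, beside 0.852 over all tested genes. Among them Sod1, the copper and zinc superoxide dismutase, had 208 ± 6.89 CPM and the copper chaperone Cox17 69.7 ± 5.60 CPM.

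Several genes that respond to glucocorticoids differed between the libraries. Of 12 such genes, all tested, 6 were called by edgeR, beside the background of 0.421%, 11 had an unadjusted p under 0.05, beside 5.95%, and 9 were outliers of DESeq2, beside 1.04%. Their median variance ratio was 25.2, beside 0.852 over all tested genes. This list was drawn up with earlier results of these data known and is not independent evidence. The co-chaperone gene Fkbp5 had 79.0, 25.2, 50.5 and 81.8 CPM in libraries 1 to 4 (edgeR adjusted p = 0.0128), the clock gene Per1 201, 73.4, 138 and 196 CPM and the growth inhibitor gene Ddit4 60.3, 17.2, 50.8 and 53.2 CPM. All 12 were lowest in library 2, as Mt1 and Mt2 were and as 31.1% of all tested genes were.

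The order of the libraries seen for Mt1 and Mt2, with library 1 above 4, 4 above 3 and 3 above 2, was that of 5 of the 12, against 5.23% of all tested genes. The phosphatase gene Dusp1 had 136, 58.7, 81.0 and 139 CPM and Zbtb16, which was not called (edgeR adjusted p = 0.0873), had 303, 178, 195 and 301 CPM. Pdk4, a brake on pyruvate dehydrogenase, had 261, 158, 400.4 and 293 CPM, highest in library 3. In 9 of the 12, libraries 1 and 4 both stood above libraries 2 and 3, against 20.5% of all tested genes. These shares describe TMM-scaled levels and carry no test. The sex-linked genes also set libraries 2 and 3 apart from libraries 1 and 4, so this split cannot be told apart from sex. The 6 calls became 3 without library 2, 5 without library 3, 0 in libraries 1 and 4 alone and 0 with a non-robust prior.

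**Figure D5:**
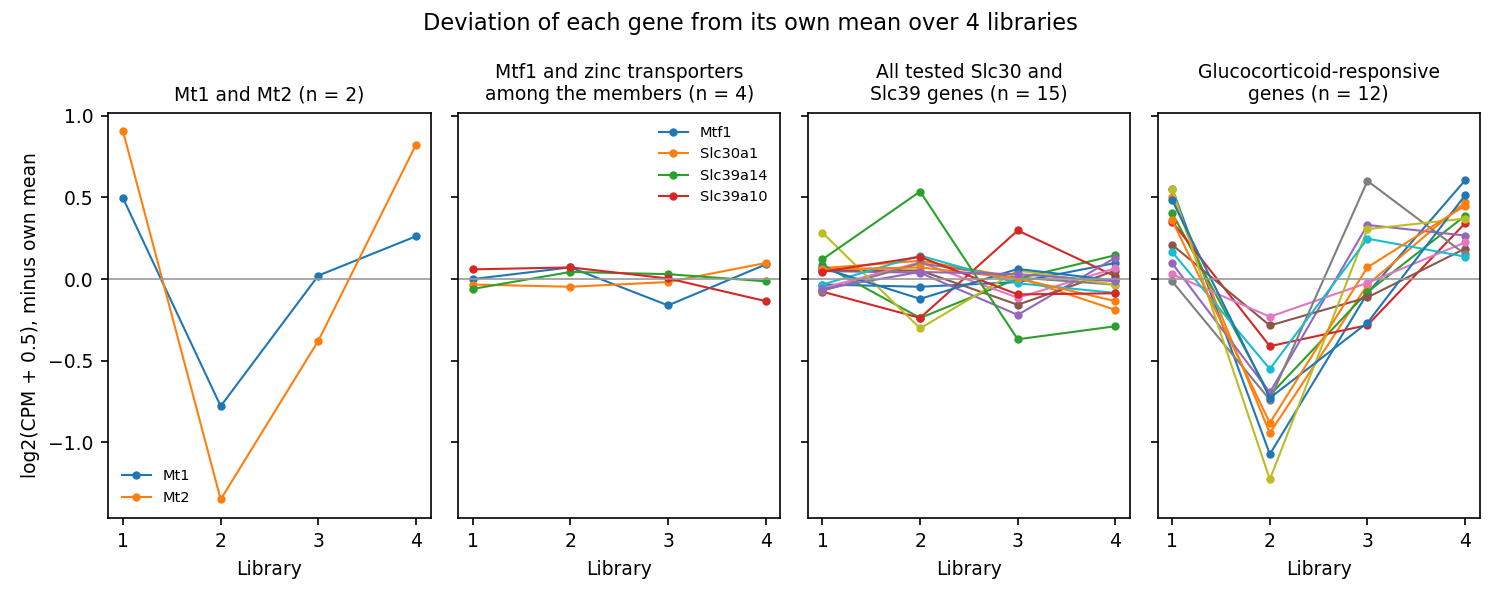
log2(CPM + 0.5) of each gene minus its own mean (y axis) in libraries 1 to 4 (x axis), with lines that only join the points of a gene. Mt1, Mt2 and the 12 glucocorticoid-responsive genes are lowest in library 2, while Mtf1 and the member transporters stay close to 0. The widest gap among the 15 tested Slc30 and Slc39 genes is 2.06-fold.

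The lists of the other stimuli known to raise metallothioneins held no gene called by edgeR. On TMM-scaled levels, 5 of 10 tested interleukin-6 and acute phase genes and 5 of 9 tested antioxidant genes were lowest in library 2. The share over all tested genes was 31.1%, and these shares carry no test. Of 10 tested genes of interleukin-6 signalling and the acute phase, edgeR called 0, against 0.421% of all tested genes, 3 had an unadjusted p under 0.05, against 5.95%, and DESeq2 had 2 as outliers, against 1.04%. Their median variance ratio was 1.84, beside 0.852 over all tested genes. The 3 genes were named after their values were seen. Cebpb, a transcription factor gene of the acute phase, had 32.5, 12.0, 14.2 and 25.3 CPM in libraries 1 to 4, with a variance ratio of 26.5 and an edgeR adjusted p of 0.0524. Its relative Cebpd had 10.8, 2.95, 7.51 and 9.05 CPM and an edgeR adjusted p of 0.156. Both had the order of Mt1 and Mt2, whereas Bcl3, a gene of the NF-kappaB pathway, was highest in library 2 at 3.68, 9.20, 4.75 and 3.45 CPM and had an edgeR adjusted p of 0.290. The receptor subunit gene Il6st had 219 ± 13.6 CPM and the factor gene Stat3 183 ± 6.51 CPM (SD, n = 4). Of 9 tested antioxidant genes, edgeR called 0, against 0.421%, 3 had an unadjusted p under 0.05, against 5.95%, and DESeq2 had 1 as an outlier, against 1.04%. Their median variance ratio was 1.55. Gstm1, a glutathione transferase, had 276 ± 17.8 CPM and the thioredoxin reductase gene Txnrd1 57.4 ± 1.35 CPM. The haem oxygenase gene Hmox1, named after its values were seen, had 21.9, 7.62, 14.8 and 21.9 CPM and an edgeR adjusted p of 0.0782.

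The genes whose pattern over the 4 libraries was most like that of Mt1 or Mt2 were found among 9616 genes of at least 5 CPM, by the root mean square difference of centred log2(CPM + 0.5). Nearest to Mt1 were Tsc22d3, a glucocorticoid-induced gene of a leucine zipper protein, at a difference of 0.10, the secreted protease gene Adamts1 at 0.11, Enc1 at 0.12, 4430402I18Rik at 0.12 and the flavin monooxygenase gene Fmo2 at 0.12. A gene with no spread would lie at 0.48 from Mt1. Tsc22d3 had 107, 49.0, 76.2 and 106 CPM, a 2.18-fold gap.

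Nearest to Mt2 were Fam107a at 0.06, the ephrin receptor gene Ephb1 at 0.11, the alcohol dehydrogenase gene Adh1 at 0.15, Gm8580 at 0.15 and Timp4, an inhibitor of matrix proteases, at 0.16, where a gene with no spread would lie at 0.93. Fam107a had 19.98, 4.17, 7.79 and 20.2 CPM, a 4.84-fold gap. Mt1 and Mt2 lay 0.49 apart. Mt1 ranked 43 in likeness to Mt2, while Mt2 ranked 5351 of 9616 in likeness to Mt1. A gene with no spread would lie at 0.48 from Mt1, slightly nearer than Mt2. Likeness over 4 libraries describes these libraries and says nothing of shared control.

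On chromosome 8, Mt2 ends 5513 bases before Mt1 begins, and Mt3 lies 18517 bases before Mt2. Within 250 kilobases on either side of Mt3 to Mt1, 11 other genes were in the files and 7 were tested. Of these 7, edgeR called 0, beside the background of 0.421%, at which no call among 7 genes is the usual count. Their coefficients of variation ran from 2.62 to 16.4%, with the largest gap between libraries at 1.51-fold, against 2.42-fold for Mt1 and 4.99-fold for Mt2. The nearest tested neighbours, named by position after the data were seen, were Bbs2, with 9.58, 7.26, 10.9 and 9.83 CPM, and Nup93, with 17.1, 16.9, 14.3 and 18.1 CPM.

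Several gene lists and single genes were lowest in library 2, as Mt1 and Mt2 were, while other lists were highest there. The glucocorticoid-responsive list summed to 1442, 754, 1261 and 1471 CPM in libraries 1 to 4, the antioxidant list to 487, 425, 483 and 514 CPM, and the smooth muscle and pericyte markers to 797, 718, 791 and 829 CPM, each lowest in library 2. Of the tested genes of these lists, 12 of 12, 5 of 9 and 4 of 7 were lowest in library 2 on TMM-scaled levels. The share over all tested genes was 31.1%. Cebpb, Cebpd and Hmox1, named after their values were seen, were lowest in library 2 too. The genes most like Mt1 or Mt2 were picked for that pattern, so their low in library 2 follows from the choice. The copper genes and the further MTF-1 targets summed lowest in library 2 too, at 418 and 262 CPM, but library 3 was close, at 422 and 265 CPM. Of their tested genes, 3 of 10 and 2 of 5 were lowest in library 2 on TMM-scaled levels, near the share of 31.1%. The interleukin-6 list and the endothelial and fibroblast markers summed highest in library 2, at 483, 1239 and 954 CPM. The sex-linked genes set libraries 2 and 3 apart from libraries 1 and 4. The share of Rn45s, the ribosomal RNA precursor, was 12.8, 14.1, 11.9 and 12.3% of gene counts, highest in library 2. The part of each of these in the spread of Mt1 and Mt2 was not tested. With Rn45s left out of the totals the gap between libraries was 2.39-fold for Mt1 and 4.92-fold for Mt2.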

How the data were processed

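The authors deposited raw counts of reads per gene symbol, 1 file per library, with 5 closing rows that name no gene and were dropped. Per the labels' protocols the libraries are single-end and not strand-specific. The submitters' processing notes list the mm10 build with HTSeq, TopHat2 2.0.10, TopHat, Bowtie2, edgeR and DESeq, without their roles. How reads were counted, and on which annotation, is not stated in the sources used here. Reads assigned to more than 1 gene were 0.824 ± 0.00778% and alignments that were not unique 8.33 ± 0.147% of the listed reads (SD, n = 4).

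CPM was computed from plain library totals. Spread was tested with edgeR 4.0.16 in R 4.3.3: an intercept only, TMM factors (0.986 to 1.01), a robust quasi-likelihood prior, and a one-sided F test of each gene's variance ratio (3 residual, 7.46 prior degrees of freedom), for genes that averaged 1 CPM or more. Alternatives were DESeq2 1.42.0 (size factors, dispersion outliers), no filter, a non-robust prior, other lengths and each library left out. Limits of 95% are exact and cover counting error only. Pairs of levels had 0.5 counts added. Coordinates are from GENCODE M21 (GRCm38, which mm10 denotes).

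The 7 members, the gene lists and the tests were chosen with earlier results of these data known. Named genes followed a rule: the members, the 2 highest and the lowest detected gene of each transporter family, the 2 most abundant and up to 4 called genes of each other list, and the 5 genes most like Mt1 or Mt2. Each pair of libraries differed by more than counting error, with a chi-square per degree of freedom of 2.22 for libraries 1 and 4 and 6.81 to 12.6 for the others.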

Additional observations from a re-analysis of the deposited data

Results flagged for a closer look

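Of 20 sets of 4 values examined (the 7 members, the 12 other tested transporter genes and the ratio of Mt1 to Mt2), 1 had a library far from the rest. Slc30a9 had 59.0 CPM in library 3, against 68.3 CPM in each of libraries 1, 2 and 4, so that the gap to the nearest library made up 0.995 of the whole range, past Dixon's limit of 95%. Chance flags about 1 in 20 such sets.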

How the results depend on the processing

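The count of 52 genes more variable than the trend was 121 with no filter on low counts, 129 as dispersion outliers of DESeq2, 10 under a non-robust prior and 6 in libraries 1 and 4 alone, 0 of these 6 among the 52. It ran from 39 to 69 with 1 library left out. The count of 0 among the zinc transporter genes was 0 under each of these alternatives. The 6 called glucocorticoid-responsive genes became 9 with no filter, 9 as dispersion outliers of DESeq2, 0 under a non-robust prior, 0 in libraries 1 and 4 alone and 3 to 5 with 1 library left out; these alternatives were added after seeing the data. With DESeq2 size factors the counts were 54 and 6. For the order of levels, 4 to 6 of the 6 neighbouring pairs held in each library under every length and with each library left out. On counts without length Slc39a14 was above Mt2 in 4 of 4 libraries. Without Rn45s in the totals the mean CPM of Mtf1, Slc30a1, Slc39a14 and Slc39a10 moved by over 1 SD, to 35.5, 20.5, 110.1 and 8.92. Without library 1 the gap between the highest and lowest library was 2.06-fold for Mt1. No paired analysis was possible because all libraries form 1 group. Depth limits Mt3, Mt4 and the 9 untested transporter genes.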
